A study of Homo sapiens with 8 samples.

Results

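The vehicle-treated HT29 transcriptome was taken from the 2 libraries whose titles name HT29 and DMSO, out of 8 libraries in the series. HT29 is an established human colorectal adenocarcinoma cell line, known to carry mutant APC, BRAF and SMAD4. Both libraries came from cells kept for 48 h in 0.1% DMSO, the solvent of the compounds under study. The other 6 libraries, with 2 per group, were from HT29 given ICG-001 at 10 µM, CWP232228 at 1.5 µM or YB-0158 at 0.3 µM for 48 h, or for 49 h in replicate 2 of ICG-001 and of CWP232228. All 8 came from the same line, so the levels below describe 1 tumour cell line in culture and no normal tissue. The labels do not say whether replicates 1 and 2 were separate cultures, so their spread may be technical. No contrast was made and no p-value is given. Levels are given as TPM, a share of all transcripts that takes their length into account so that genes can be compared, for replicate 1 and then replicate 2. Genes were named by the rule given with the processing, and further list members were added after their values were seen.

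Colonic epithelium is a single layer of cells renewed from stem cells at the crypt base, which are held in that state by Wnt ligands and R-spondins from neighbouring stroma. Their daughters become absorptive colonocytes or secretory goblet, enteroendocrine and tuft cells, and all keep keratin filaments, E-cadherin junctions and a lining of claudins. In most colorectal tumours, loss of APC leaves beta-catenin free to act with TCF factors in the nucleus without an outside ligand. A bulk library averages over all cells, so fewer cells that express a gene and less RNA per cell cannot be told apart.

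Depth was close in the pair, with 29071547 and 29779369 estimated reads. A gene counted as detected at a mean of at least 1 TPM. By that measure 13463 genes were detected, of which 11442 were protein-coding, 57.6% of the 19860 protein-coding genes. Of these, 7320 reached 10 TPM, 1278 reached 100 TPM and 132 reached 1000 TPM, and the median of those detected was 16.7 TPM. A further 4565 protein-coding genes (23.0%) had 0 reads in both libraries. A count of 0 allows up to 3 reads, and over the 136 list genes at 0 this limit had a median of 0.060 TPM and a highest value of 0.823 TPM, covering counting error only. Across the 11442 detected genes, which are not independent replicates, the rank correlation between the libraries was 0.976.

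The 20 nuclear protein-coding genes with the highest mean level took 11.7% and 12.5% of all TPM. Of these, 14 encode ribosomal proteins. The other 6 were EEF1A1, which brings aminoacyl-tRNA to the ribosome, TPT1, the actin-binding TMSB10, the calcium-binding S100A6, the ferritin heavy chain FTH1 and the keratin KRT8. All 78 cytosolic ribosomal protein genes together took 21.9% of TPM in replicate 1 and 24.4% in replicate 2. The 13 mRNAs of the mitochondrial genome took 0.903% and 1.40% of the reads, more in replicate 2.

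TPM overstates transcripts shorter than the sequenced fragments, because few reads are divided by a tiny effective length. Transcripts with an effective length under 100 bases held 16.5% and 17.0% of TPM but 0.328% and 0.379% of reads. CDH1, which encodes E-cadherin, shows the scale of this. It was listed at 301 and 126 TPM, of which its 282-base transcript CDH1-208 made 159 and 9.87 TPM from 185 and 12.8 reads. Without such transcripts, and with the rest rescaled to the same total, CDH1 stood at 169.9 and 139.8 TPM. Of the 11442 protein-coding genes detected, 284 (2.48%) fell by more than 1.5-fold on that scale, and for genes among them both values are given below.

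All 5 markers given for the line were detected, at mean levels from 1.48 to 5209.5 TPM. KRT8 and KRT18, the partner keratins of simple epithelium, stood at 5119 and 5300.5 TPM (mean 5209.5 ± 129, SD, n = 2) and 3228 and 3551 TPM (mean 3389 ± 228). Both have processed pseudogenes of like sequence, so their share of reads rests on Salmon's model. EPCAM, an epithelial adhesion protein, stood at 501 and 449 TPM (mean 475 ± 36.5). CDX2, the homeobox factor of intestinal identity, was far lower at 9.39 and 6.82 TPM (mean 8.11 ± 1.82), from 431 and 468 reads. Its protein-coding transcript CDX2-201 accounted for 3.18 and 3.52 TPM of that level, but for 83.4% and 91.1% of the gene's reads. CEACAM5, the carcinoembryonic antigen, stood at 1.64 and 1.32 TPM (mean 1.48 ± 0.231), from 132 and 118 reads. The markers shared by simple epithelia, KRT8, KRT18 and EPCAM, were thus high, while CDX2 and CEACAM5, those tied to the intestine and to colorectal tumours, were low.

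Of 27 genes listed for colon epithelium and colorectal carcinoma, 22 (81.5%) were detected, against 57.6% of all protein-coding genes. LGALS4, a galectin of the intestinal lining, reached 1389.9 and 1426 TPM. KRT19 and KRT20, the keratins of simple and of differentiated intestinal epithelium, stood at 694 and 765 and at 152 and 158.2 TPM. TSPAN8, a tetraspanin of gut tumours, stood at 371 and 388 TPM. VIL1, which bundles the actin of the brush border, stood at 163 and 131 TPM, and the epithelial transcription factors ELF3 and KLF5 at 154 and 167 and at 207 and 132 TPM. Only KLF5 of these moved by more than 1.5-fold between the libraries. HNF4A, a nuclear receptor that runs the intestinal programme, stood at 25.4 and 20.5 TPM. The CEACAM genes ordered as CEACAM1, CEACAM6, CEACAM5 and CEACAM7. CEACAM1 was listed at 124 and 84.4 TPM, or 76.3 and 54.2 TPM without short transcripts, and CEACAM6 at 5.60 and 4.38 TPM. Members under 1 TPM included CDX1 (0.683 and 1.27 TPM), the intestinal cadherin CDH17 (0.425 and 0.660 TPM), CEACAM7 (0.181 and 0.473 TPM) and the antibody transporter PIGR (0.201 and 0.222 TPM). CDX1 was on either side of the threshold in the 2 libraries.

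**Figure D1:**
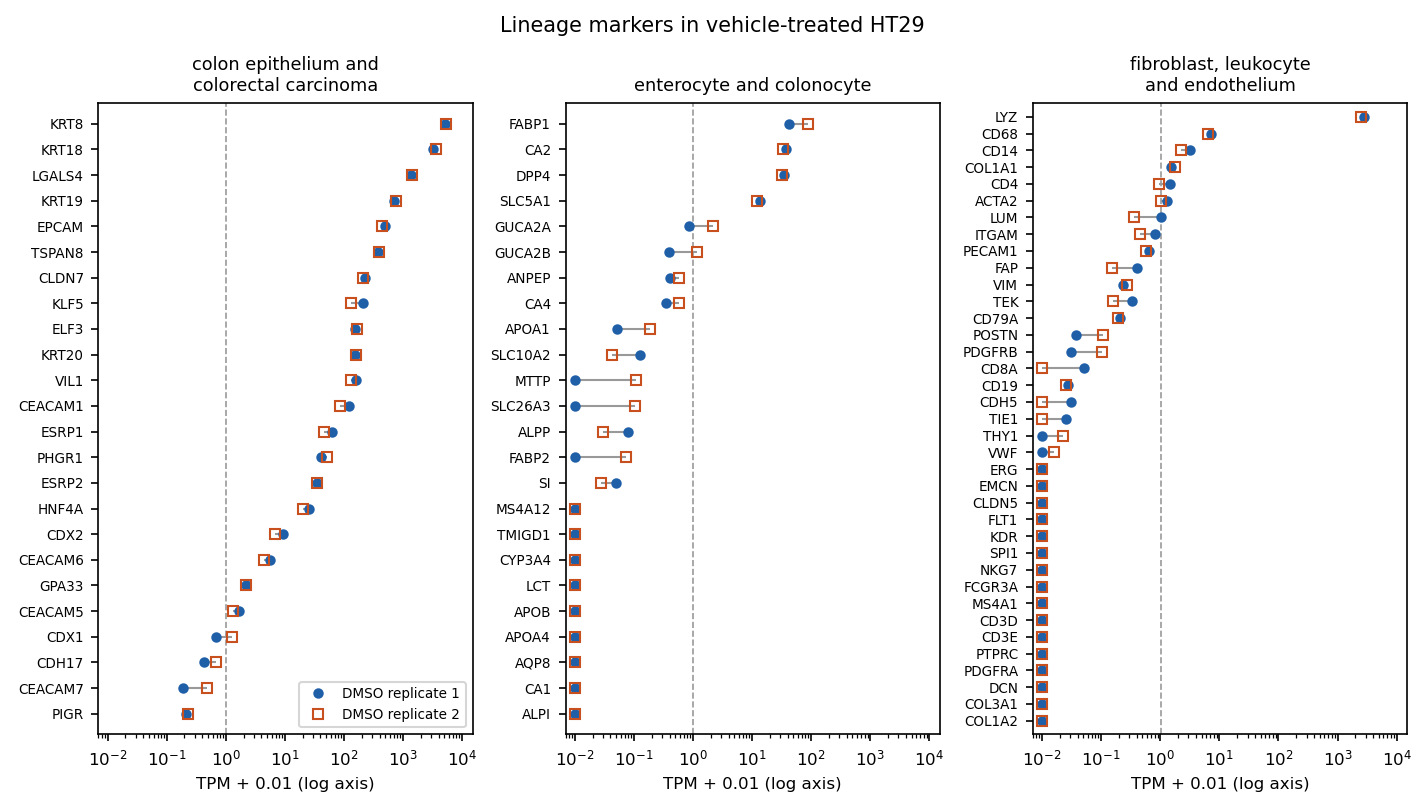
Level of each gene in TPM plus 0.01 (log axis) in DMSO replicate 1 (filled circle) and replicate 2 (open square) for 3 groups of lineage markers, with a dashed line at 1 TPM and the left edge at 0. Some list members are not plotted. Most genes of the colon epithelium panel lie right of the line, against 5 of 24 in the enterocyte panel, and among the markers of other cells LYZ stands alone at the right.

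Markers of mature colonocytes were mostly missing, with 5 of 24 (20.8%) detected and 9 at 0 in both libraries. FABP1, the liver-type fatty acid-binding protein, led the list at 41.7 and 87.2 TPM and was higher in replicate 2. CA2, a cytosolic carbonic anhydrase, stood at 37.5 and 33.4 TPM. DPP4, a brush border peptidase, stood at 34.7 and 32.2 TPM and SLC5A1, the sodium-glucose transporter, at 13.6 and 12.1 TPM. GUCA2A, which encodes guanylin, lay across the threshold at 0.844 and 2.13 TPM. The genes at 0 included ALPI, the intestinal alkaline phosphatase, CA1, the water channel AQP8, and the apolipoproteins APOA4 and APOB. SLC26A3, the chloride exchanger of the colonic surface, stood at 0 and 0.095 TPM and SI, the sucrase-isomaltase, at 0.039 and 0.017 TPM.

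Goblet cell genes were detected in 11 of 22 cases (50%), and the secretory mucin of the colon was not among them. MUC2 stood at 0.167 and 0.137 TPM, and ZG16, CLCA1 and ITLN1 were at 0. AGR2, a disulfide isomerase needed for mucin folding, reached 842 and 863 TPM. The membrane mucins MUC13 and MUC20 stood at 68.1 and 64.9 and at 62.6 and 64.8 TPM, next to one another in level. SPDEF, a transcription factor of goblet cells, stood at 20.7 and 22.2 TPM and the secretory fate factor ATOH1 at 1.29 and 1.25 TPM. REG4 (38.3 and 44.2 TPM) and TFF3 (16.4 and 23.0 TPM), 2 secreted products, were present too. These 4 were named after their values were seen, as was MUC1, a membrane mucin listed at 17.3 and 2.24 TPM and at 2.29 and 2.70 TPM without short transcripts.

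Stem cell markers were detected in 16 of 22 cases (72.7%). CD44, a hyaluronan receptor, stood at 553 and 463 TPM, the highest of the list. ALDH1A1, a retinal dehydrogenase, followed at 382 and 316 TPM. RNF43, which removes Wnt receptors from the surface, stood at 80.6 and 63.0 TPM and the pentaspan protein PROM1 at 72.2 and 35.5 TPM. LGR5, the R-spondin receptor that marks crypt base cells, was low at 2.29 and 1.76 TPM, and its partner in the same programme ASCL2 stood at 3.83 and 4.05 TPM. OLFM4, an abundant product of normal crypt base cells, had 0.014 and 0 TPM, SMOC2 0 and 0.018 TPM, and MSI1 was at 0 in both. ASCL2 was named after its value was seen.

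CD44 forms with variable exons led in TPM in both libraries, but in reads only in replicate 1. Reads were assigned by the transcript model to forms that carry at least 1 of the 9 variable exons of GRCh38 chr11:35196746-35211449, or to the standard form that skips them. Forms with variable exons stood at 354 and 289 TPM, against 80.7 and 72.6 TPM for the standard form. Not corrected for length, forms with variable exons took 52.7% and 48.9% of the reads of either kind. The standard form took 47.3% and 51.1%.

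Few genes of the other secretory lineages were detected, but these included LYZ and MMP7 at high level. Of 16 enteroendocrine genes 4 (25%) were detected, none above 5 TPM, led by the transcription factors PAX4 (2.07 and 1.71 TPM) and NEUROG3 (1.54 and 1.67 TPM) and the granule protein SCG5 (1.11 and 1.60 TPM). CHGB, NEUROD1, PAX6 and PYY were at 0, and CHGA stood at 0 and 0.021 TPM. Of 12 tuft and Paneth cell genes 3 were detected. LYZ, which encodes lysozyme, an antibacterial enzyme of Paneth cells and of myeloid cells, reached 2801 and 2482 TPM, and the matrix protease MMP7 reached 103 and 113 TPM. TRPM5, an ion channel of tuft cells, stood at 1.11 and 1.63 TPM. The Paneth cell defensins DEFA5 and DEFA6 and the tuft cell kinase DCLK1 were at 0.

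Markers of other cell types were close to absent. None of 10 endothelial genes was detected, the highest being PECAM1 at 0.632 and 0.567 TPM, and their summed level was 0.992 and 0.720 TPM. Of 12 fibroblast genes 2 were detected, COL1A1 at 1.49 and 1.79 TPM and ACTA2 at 1.297 and 1.01 TPM, with a summed level of 4.45 and 3.75 TPM. COL1A2, COL3A1, DCN and PDGFRA were at 0. The leukocyte list had 4 of 15 detected, of which LYZ made nearly all of the summed 2813 and 2492 TPM. The defining leukocyte genes PTPRC, CD3E, CD3D, MS4A1 and FCGR3A were at 0, and CD68, a lysosomal protein, stood at 7.13 and 6.37 TPM. Neural and muscle genes were detected in 1 of 13 cases, TUBB3, a tubulin also made by tumour cells, at 16.9 and 16.4 TPM.

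A liver and stomach list behaved unlike these in 2 members. SERPINA1, which encodes the main protease inhibitor of plasma, a liver product, reached 535 and 591 TPM. APOH, a plasma glycoprotein, reached 59.1 and 56.8 TPM. The liver's ALB, AFP and FGB and the stomach's GKN1 and GKN2 were at 0, and in all 4 of 13 genes were detected.

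Promoter sequence was set beside level, using the window from 250 bases before to 50 bases after a gene's start in RefSeq (GRCh38.p14), which was matched by symbol for 11290 of the 19860 protein-coding genes. A window was called CpG-rich where its observed to expected CpG ratio was at least 0.6 and its GC content at least 50%. Over all windows 65.0% were CpG-rich. The share was 28.7% for genes at 0 reads, 44.9% for those above 0 and under 1 TPM, 79.6% from 1 to 10 TPM, 89.8% from 10 to 100 TPM and 89.0% from 100 TPM. The letters TATAAA, read on either strand, were found in 10.5% of all windows, from 21.7% at 0 reads down to 3.68% between 10 and 100 TPM and 7.91% from 100 TPM. Lineage lists differed, with CpG-rich windows in 1 of 11 colon epithelium genes that had an entry, 1 of 16 enterocyte genes, 6 of 8 stem cell genes and 5 of 8 enteroendocrine genes. Keratin genes had 0 in 6.

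4 windows are shown. Those of the markers KRT8 and CEACAM5 are CpG-poor, and both genes were detected. That of the marker CDX2 is CpG-rich and the gene was detected, and that of ELOVL5 is CpG-rich and the gene was at 0. Each is the 250 bases before the start, 5′ to 3′ on the gene's strand in GRCh38.p14, with CpG pairs in capitals. KRT8 lies at chr12:52926470-52926719 on the minus strand, CEACAM5 at chr19:41708376-41708625 on the plus strand, CDX2 at chr13:27969316-27969565 on the minus strand and ELOVL5 at chr6:53348951-53349200 on the minus strand.
KRT8: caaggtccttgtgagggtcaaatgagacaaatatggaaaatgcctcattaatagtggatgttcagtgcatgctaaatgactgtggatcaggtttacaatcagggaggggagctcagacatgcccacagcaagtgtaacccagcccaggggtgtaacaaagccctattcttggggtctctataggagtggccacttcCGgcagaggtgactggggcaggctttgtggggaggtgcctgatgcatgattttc
CEACAM5: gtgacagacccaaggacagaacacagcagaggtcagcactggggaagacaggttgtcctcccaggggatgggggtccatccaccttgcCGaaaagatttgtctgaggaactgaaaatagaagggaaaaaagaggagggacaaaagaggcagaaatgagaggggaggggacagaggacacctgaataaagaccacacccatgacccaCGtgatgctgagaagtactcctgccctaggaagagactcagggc
CDX2: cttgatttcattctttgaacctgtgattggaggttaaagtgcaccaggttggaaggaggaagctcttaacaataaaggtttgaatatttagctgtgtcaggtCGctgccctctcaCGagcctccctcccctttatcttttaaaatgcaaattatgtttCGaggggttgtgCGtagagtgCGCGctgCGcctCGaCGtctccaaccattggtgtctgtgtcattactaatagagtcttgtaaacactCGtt
ELOVL5: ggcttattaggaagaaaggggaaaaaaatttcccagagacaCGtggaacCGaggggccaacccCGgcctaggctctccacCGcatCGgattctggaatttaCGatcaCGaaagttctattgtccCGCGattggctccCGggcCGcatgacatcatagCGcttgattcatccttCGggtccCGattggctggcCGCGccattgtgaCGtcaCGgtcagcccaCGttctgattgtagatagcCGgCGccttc
The KRT8 stretch holds 1 CpG and that of CEACAM5 holds 2, and these genes stood at 5119 and 5300.5 TPM and at 1.64 and 1.32 TPM. CDX2 holds 10 and stood at 9.39 and 6.82 TPM. ELOVL5, which elongates polyunsaturated fatty acids, holds 21 and had 0 reads in both libraries. None of the 4 windows holds TATAAA on either strand. These are descriptions of the letters in a window, and DNA methylation was not measured. Windows were matched by symbol and may not lie at the start in use in these cells. In the annotation used for levels, KRT8 reaches to chr12:52949954, upstream of its window.

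Keratins were led by the simple epithelial set. Of 19 listed genes 11 (57.9%) were detected, in the order KRT8, KRT18, KRT19, KRT20, KRT80, KRT10, KRT17 and KRT7, with no overlap between neighbours. KRT80 and KRT10 stood at 31.0 and 28.8 and at 27.9 and 25.4 TPM. KRT7, which normal colon lacks, stood at 10.7 and 10.4 TPM, and KRT17, a keratin of basal and wounded epithelium, at 13.4 and 12.3 TPM. KRT13, KRT23 and KRT15 ended the order between 3.59 and 4.95 TPM, and their ranges overlapped. Among squamous and basal keratins KRT1, KRT5, KRT6A, KRT6B and KRT14 were at 0, while others, such as KRT17, were detected as given above.

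Adherens junctions showed the epithelial cadherin and its catenins. CDH1 was present in both libraries, at 169.9 and 139.8 TPM without short transcripts as given above. CTNNA1, the alpha-catenin that ties the junction to actin, stood at 327 and 304 TPM. JUP, or plakoglobin, stood at 210.4 and 197 TPM and CTNND1, which steadies E-cadherin at the membrane, at 108 and 73.5 TPM. CTNNB1, or beta-catenin, stood at 78.5 and 74.4 TPM, which overlaps CTNND1. CDH3, or P-cadherin, was low at 6.24 and 5.31 TPM, while CDH2, CDH4, CDH6 and CDH11 were at 0. All told, 9 of 17 cadherin, catenin and plakophilin genes (52.9%) were detected.

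Desmosome genes were detected in 5 of 10 cases, and the DSG and DSC cadherins of stratified epithelium were missing. DSG2 and DSC2, the desmosomal cadherins of simple epithelium, stood at 27.5 and 15.3 and at 9.21 and 5.29 TPM. DSP, the plaque protein that anchors keratin, stood at 13.7 and 9.39 TPM. PPL and EVPL stood at 22.5 and 19.4 and at 8.86 and 9.40 TPM. DSG1, DSG3, DSG4, DSC1 and DSC3 were each under 0.1 TPM.

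Tight junction genes were detected in 18 of 26 cases (69.2%). CLDN4 led at 244 and 246 TPM, followed by CLDN7 at 229 and 211 TPM and CLDN3 at 100.003 and 108 TPM, claudins that seal the space between cells. CLDN2, which forms a channel for cations and water, stood at 57.8 and 58.0 TPM. CLDN12 followed at 45.3 and 23.4 TPM, CLDN1 at 11.2 and 7.64 TPM and CLDN15 at 5.84 and 6.77 TPM. In this order neighbours did not overlap from CLDN4 to CLDN15. The scaffolds TJP3 and TJP1 stood at 75.7 and 67.0 and at 40.7 and 25.7 TPM. OCLN, or occludin, stood at 12.4 and 7.17 TPM. CLDN5, CLDN8, CLDN14 and CLDN16 were at 0, and CLDN18, a claudin of the stomach, stood at 0.142 and 0.076 TPM.

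**Figure D2:**
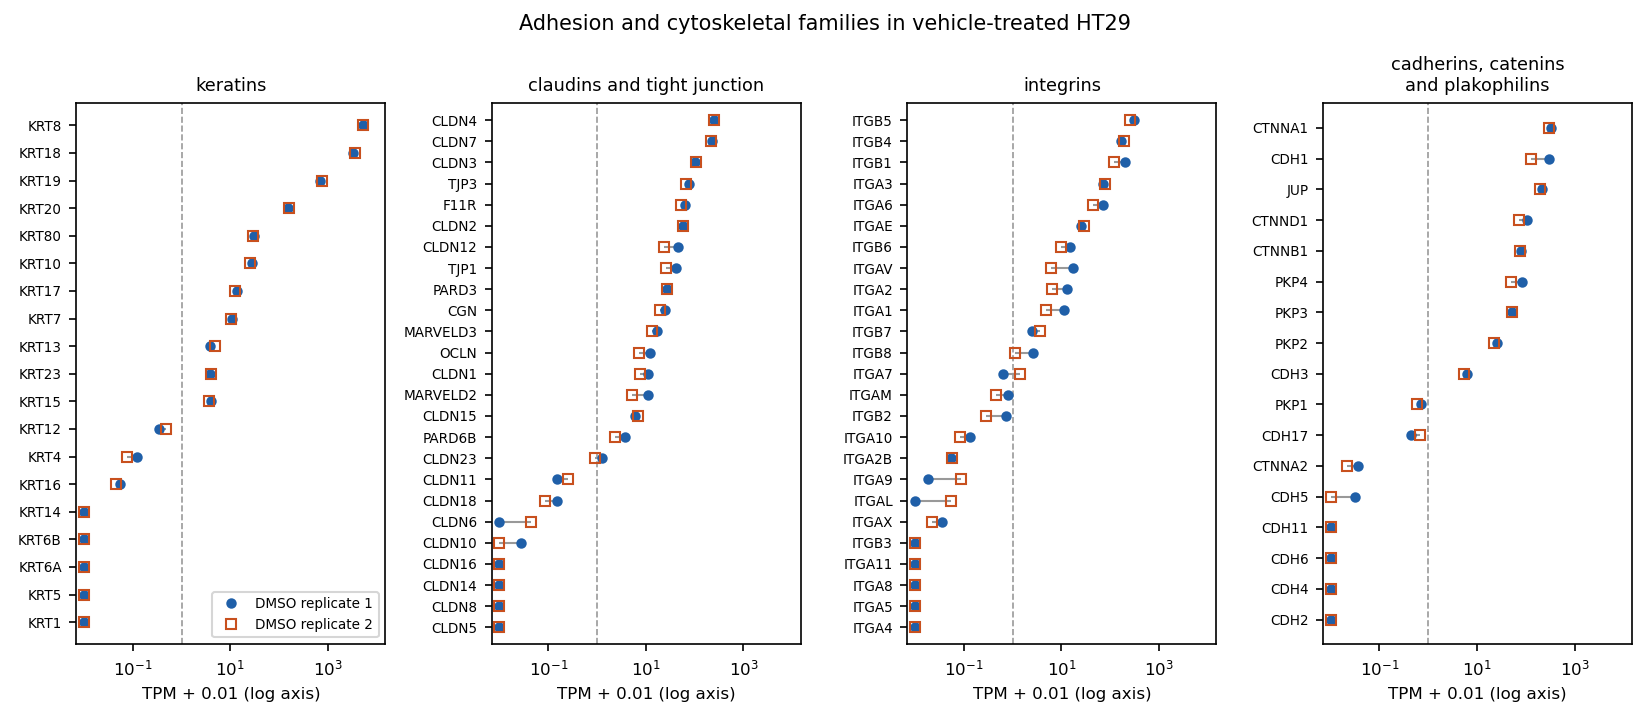
Level of each gene in TPM plus 0.01 (log axis) in DMSO replicate 1 (filled circle) and replicate 2 (open square) for keratins, tight junction genes, integrins and cadherins with catenins, ordered by mean level, with a dashed line at 1 TPM and the left edge at 0. Some list members are not plotted. KRT8 stands highest of all, and 5 keratins, 4 claudins, 5 integrins and 4 cadherins lie at 0 in both libraries.

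Integrins, which bind cells to matrix, were detected in 13 of 25 cases (52.0%). Among beta chains ITGB5 led at 308 and 251 TPM. ITGB4, the laminin-binding chain of hemidesmosomes, stood at 166 and 194 TPM and ITGB1, the most widely shared chain, at 197 and 122 TPM, and these 2 overlapped. ITGB6 (15.2 and 10.0 TPM), ITGB7 (2.52 and 3.62 TPM) and ITGB8 (2.62 and 1.09 TPM) were lower, and ITGB3 was at 0. Among alpha chains the laminin receptors ITGA3 (70.5 and 77.8 TPM) and ITGA6 (72.4 and 45.1 TPM) led, overlapping one another. ITGAE stood at 24.9 and 29.6 TPM, ITGAV at 17.2 and 6.17 TPM, and the collagen-binding ITGA2 and ITGA1 at 13.3 and 6.31 and at 11.3 and 4.79 TPM. ITGA5, the alpha chain of the classical fibronectin receptor, was at 0 in both, as were ITGA4, ITGA8 and ITGA11.

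Of 23 genes of basement membrane and matrix 11 (47.8%) were detected, against 57.6% of all protein-coding genes. Most of the listed genes belong to the basement membrane, so the list cannot set this kind of matrix against others. AGRN, a heparan sulfate proteoglycan, led at 307 and 263 TPM, with the laminin chain LAMA5 at 108 and 124 TPM and perlecan, HSPG2, at 58.0 and 71.9 TPM. Of the chains of the laminin of hemidesmosomes, LAMB3 stood at 46.9 and 48.1 TPM and LAMA3 at 5.53 and 7.08 TPM. COL4A2 was detected at 11.04 and 11.01 TPM while COL4A1, which sits head to head with it and supplies the other chain of the common collagen IV trimer, had 0.0097 and 0.0088 TPM. LAMA3, LAMB3, COL4A1 and COL4A2 were named after their values were seen. LAMA1, LAMA4, COL4A6, NID1 and SPARC were at 0.

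Of 14 genes of the mesenchymal state 2 (14.3%) were detected. S100A4, a calcium-binding protein also made by epithelial tumour cells, stood at 162 and 262 TPM and was higher in replicate 2. MMP14, a membrane protease, stood at 4.58 and 5.33 TPM. VIM, the mesenchymal filament vimentin, had 0.223 and 0.267 TPM, FN1 0.631 and 0.819 TPM and ZEB1 0.030 and 0.020 TPM. SNAI2, TWIST1, TWIST2, CDH2, MMP9 and LOX were at 0. SNAI1 alone of the listed factors came near the threshold, at 1.14 and 0.830 TPM.

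Wnt ligands were few, with 3 of 19 (15.8%) detected. WNT11, a ligand best known for signalling without beta-catenin, stood at 8.85 and 10.5 TPM. WNT10A stood at 7.81 and 8.45 TPM and WNT7B at 7.75 and 7.604 TPM, and these were the only others over 1 TPM. WNT11 did not overlap WNT10A, nor WNT10A WNT7B. WNT3, WNT2B and WNT4 lay between 0.309 and 0.548 TPM. WNT2, WNT3A, WNT7A, WNT8A and WNT16 were among the 7 at 0.

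Receptors and outer regulators of Wnt were detected in 14 of 36 cases (38.9%). The co-receptor LRP5 led at 107 and 111 TPM, against 5.74 and 2.65 TPM for its relative LRP6. Of the Frizzled receptors FZD6 stood highest at 15.5 and 9.02 TPM. FZD5 (5.30 and 3.73 TPM) and FZD7 (4.69 and 3.97 TPM) overlapped, and FZD4, FZD2, FZD3, FZD1 and FZD8 lay between 0.246 and 1.10 TPM. WLS, needed to secrete Wnt proteins, stood at 101.65 and 77.9 TPM. LGR4, an R-spondin receptor, stood at 26.4 and 14.1 TPM, above LGR5. DKK1, a secreted inhibitor of LRP5 and LRP6, reached 81.3 and 75.2 TPM. Of other secreted inhibitors SFRP1, SFRP2, SFRP4, WIF1, DKK2 and DKK4 were at 0, SFRP5 had 0.017 and 0.016 TPM, DKK3 0.209 and 0.082 TPM and NOTUM 0.849 and 0.943 TPM. All 4 R-spondins, RSPO1 to RSPO4, were at 0.

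Inside the cell the pathway was nearly complete, with 22 of 26 genes (84.6%) of the destruction complex and its nuclear partners detected. APC, the scaffold that is mutant in HT29, stood at 6.82 and 2.31 TPM. AXIN1 stood at 26.1 and 24.0 TPM, and AXIN2, a textbook target of beta-catenin, at 21.2 and 17.7 TPM. GSK3A stood above GSK3B, at 66.5 and 66.3 against 25.6 and 14.2 TPM. Of the 4 DNA-binding partners TCF7L2 was listed at 113 and 57.3 TPM, or 30.6 and 18.0 TPM without short transcripts, and TCF7 at 37.3 and 33.3 TPM, so that the order of these 2 depends on such transcripts. LEF1 and TCF7L1 had 0.077 and 0.322 and 0.129 and 0.191 TPM. KHDRBS1, an RNA-binding protein and a reported target of ICG-001, stood at 111 and 86.1 TPM. The acetyltransferases CREBBP and EP300, which act as beta-catenin's coactivators, stood at 10.5 and 9.84 and at 8.90 and 4.15 TPM. CREBBP was the more even of the 2 between the libraries. The leading CREBBP transcript was CREBBP-202 in replicate 1 and CREBBP-201 in replicate 2. Over the 7320 protein-coding genes at 10 TPM or more, the leading transcript differed between the libraries in 746 (10.2%). APC, AXIN1, AXIN2, GSK3A, GSK3B and TCF7 were named after their values were seen.

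**Figure D3:**
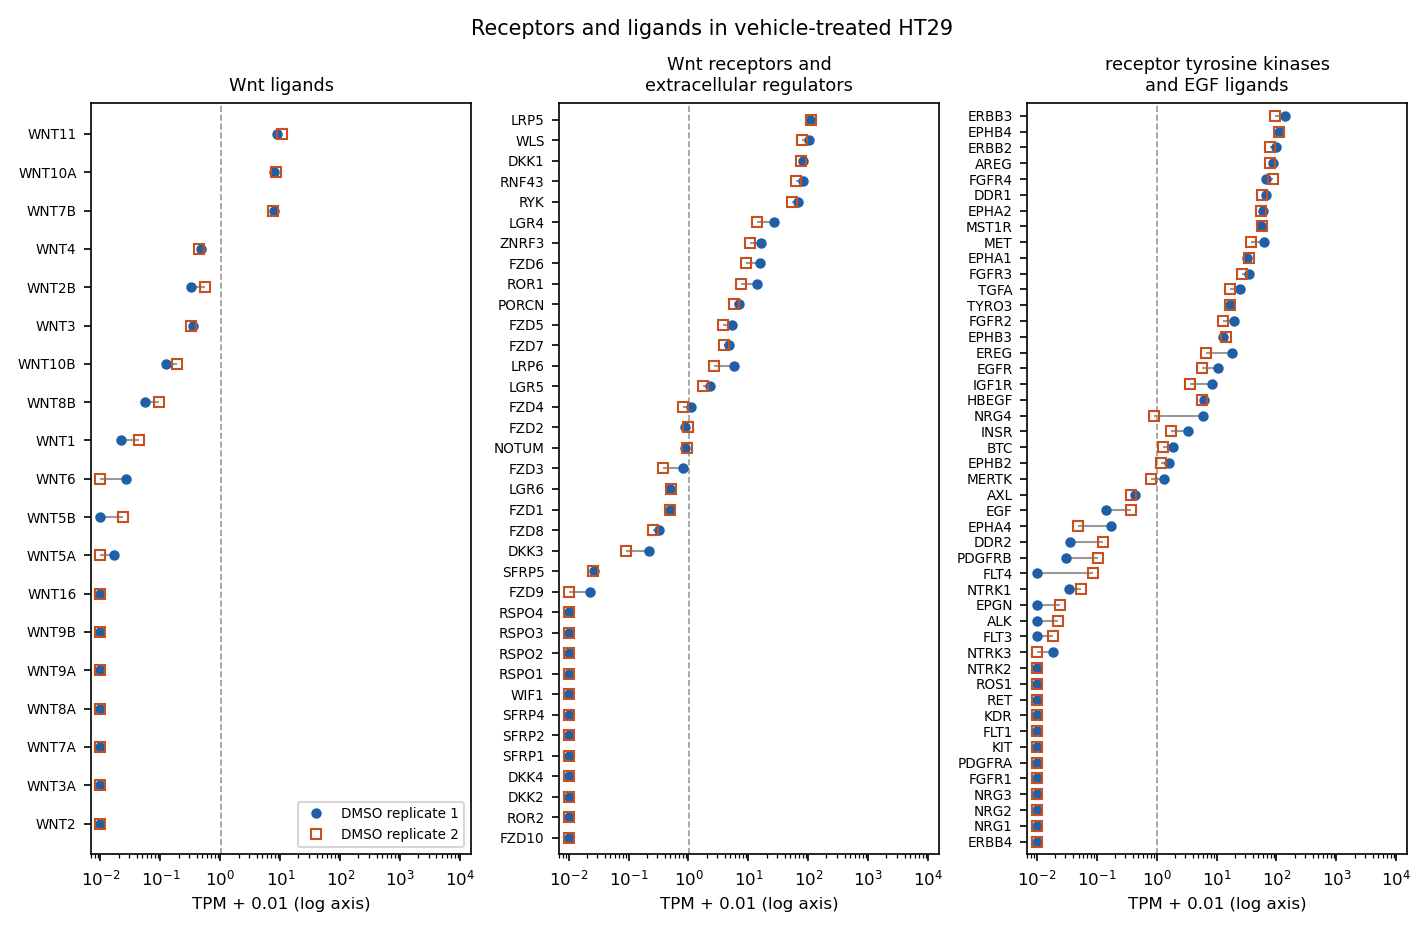
Level of each gene in TPM plus 0.01 (log axis) in DMSO replicate 1 (filled circle) and replicate 2 (open square) for Wnt ligands, Wnt receptors with their outer regulators, and receptor tyrosine kinases with EGF-type ligands, with a dashed line at 1 TPM and the left edge at 0. Of the Wnt ligands 3 of 19 lie right of the line, and among the kinases ERBB3 and EPHB4 lie furthest right.

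The EGF receptor family was led by its kinase-poor member. ERBB3, which signals mainly through partners, stood at 138 and 96.0 TPM and ERBB2 at 97.4 and 79.4 TPM, with overlap between them. EGFR stood at 10.6 and 5.69 TPM, below both, and ERBB4 was at 0. Among ligands AREG led at 86.3 and 78.0 TPM, then TGFA at 24.8 and 16.8 TPM, EREG at 18.4 and 6.57 TPM and HBEGF at 6.11 and 5.71 TPM. TGFA and EREG overlapped, while EGF itself had 0.136 and 0.359 TPM. NRG1, NRG2 and NRG3, the ligands of ERBB3 and ERBB4, were at 0, and NRG4 was listed at 5.89 and 0.902 TPM, or 0.892 and 1.09 TPM without short transcripts.

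Other receptor tyrosine kinases were detected in 15 of 32 cases (46.9%). EPHB4, an ephrin receptor, led at 111 and 110.2 TPM. Of the FGF receptors FGFR4 stood at 67.3 and 88.7 TPM, FGFR3 at 35.0 and 26.2 TPM and FGFR2 at 19.8 and 13.0 TPM, with no overlap, while FGFR1 was at 0. Reads on FGFR2 transcripts that hold the exon of the epithelial IIIb form or of the IIIc form fell to IIIb in 76.7% and 80.0% of cases. DDR1, a collagen receptor, stood at 65.9 and 57.3 TPM. MET, the receptor of hepatocyte growth factor, stood at 61.7 and 37.5 TPM, IGF1R at 8.37 and 3.66 TPM and INSR at 3.28 and 1.71 TPM, named after their values were seen. KIT, RET, KDR, FLT1 and PDGFRA were at 0.

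Downstream of these receptors, all 29 genes of the RAS-ERK cascade and its feedback were detected. HRAS was listed at 180.3 and 196 TPM, or 101 and 101.99 TPM without short transcripts, above NRAS (23.6 and 14.5 TPM). The kinase ARAF stood at 39.8 and 39.9 TPM. BRAF, the kinase that is mutant in HT29, was lower in both libraries, at 5.61 and 2.91 TPM. MAP2K2, the kinase that acts on ERK, stood at 104 and 110.4 TPM and the adaptor GRB2 at 121 and 84.9 TPM. The feedback phosphatase DUSP6 stood at 73.2 and 46.6 TPM and the ERK-driven factor ETV4 at 78.2 and 78.4 TPM, named after their values were seen.

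The PI3K, AKT and mTOR list had 18 of 20 genes (90.0%) detected. The mTOR activator RHEB stood at 150.5 and 142 TPM. AKT2 and AKT1 stood at 119 and 109 and at 109.7 and 99.8 TPM, overlapping one another. PIK3CD, the leukocyte form of the catalytic subunit, had 0.124 and 0.294 TPM.

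TGF-beta and BMP genes were detected in 21 of 28 cases (75%). BMP4, a ligand that opposes stem cell renewal in the crypt, stood highest at 216 and 208 TPM. Its response genes ID1 and ID2 stood at 89.5 and 83.3 and at 80.2 and 68.7 TPM. The BMP antagonists GREM1 and NOG were at 0. SMAD4, the shared partner of both branches and mutant in this line, stood at 7.82 and 2.60 TPM, and the receptor TGFBR2 at 29.5 and 18.9 TPM. SMAD4 and TGFBR2 were named after their values were seen.

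Notch and Hedgehog genes were detected in 10 of 22 cases (45.5%). HES1, a target of Notch, led at 44.7 and 44.9 TPM. Of the receptors NOTCH2 stood at 6.42 and 3.29 TPM and NOTCH1, NOTCH3 and NOTCH4 were each under 1 TPM in both libraries. The ligands JAG2 and JAG1 stood at 7.17 and 6.37 and at 9.20 and 2.96 TPM. SHH, the Sonic hedgehog ligand, reached 24.2 and 21.9 TPM and IHH 7.63 and 9.31 TPM. SMO, the membrane protein through which Hedgehog signals, was at 0, as was GLI3. PTCH1, the receptor, stood at 3.25 and 2.43 TPM and GLI1 was listed at 5.96 and 7.22 TPM, or 3.31 and 4.51 TPM without short transcripts.

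The YAP and TEAD list had 18 of 21 genes (85.7%) detected. YAP1, the coactivator restrained by the Hippo kinases, stood at 53.2 and 25.9 TPM against 0.704 and 1.36 TPM for its relative WWTR1. The 4 TEAD factors were all present, TEAD2 at 30.9 and 26.2, TEAD4 at 24.1 and 20.2, TEAD3 at 20.9 and 18.6 and TEAD1 at 19.5 and 6.94 TPM, where TEAD4 overlapped TEAD3 and TEAD3 overlapped TEAD1. MOB1A, a Hippo pathway adaptor, stood at 55.4 and 26.2 TPM. AMOTL1 was at 0, ANKRD1 had 0.203 and 0.081 TPM and AXL 0.423 and 0.361 TPM.

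Nuclear receptors were detected in 20 of 32 cases (62.5%), and the classical steroid receptors were missing. ESR1, ESR2, PGR and NR3C1, the glucocorticoid receptor, were at 0. NR1H3, the sterol sensor LXR-alpha, led at 79.4 and 90.9 TPM, with NR2F6 at 52.6 and 60.7 TPM and the retinoic acid receptor RARG at 57.7 and 51.9 TPM. VDR, the vitamin D receptor, stood at 13.1 and 7.99 TPM. PPARG, a fatty acid sensor, stood at 29.3 and 16.3 TPM, whereas the authors' FPKM gave 80.6 and 87.7. That FPKM was not rescaled to the same total, so its values in the 2 libraries are not on a common scale. The cause of the difference between the 2 gene summaries was not tested. VDR and PPARG were named after their values were seen.

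Cytokine receptor and interferon genes were detected in 25 of 30 cases (83.3%), led by the interferon-induced ISG15 at 108 and 119 TPM, the signal transducer STAT6 at 83.0 and 69.0 TPM and the TNF receptor TNFRSF1A at 67.3 and 55.4 TPM. IL6ST, a receptor chain shared by several interleukins, was listed at 48.7 and 1.00 TPM, or at 5.99 and 1.21 TPM without short transcripts. Antigen presentation genes were detected in 15 of 23 cases (65.2%). B2M, the light chain of class I molecules, stood at 844 and 861 TPM and HLA-C at 100.295 and 106 TPM. The HLA genes share much of their sequence, so their split is uncertain. HLA-DRA, HLA-DPA1 and the class II activator CIITA were at 0, and CD274, which encodes PD-L1, had 0.733 and 0.809 TPM.

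Cell cycle genes were detected in 22 of 25 cases (88.0%) and cell death genes in 20 of 22 (90.9%). CDK4, the partner of D cyclins, led the first list at 282 and 277 TPM, followed by the replication clamp PCNA at 173 and 154 TPM and the mitotic cyclin CCNB1 at 159 and 138 TPM. MYC, a driver of growth and a known target of beta-catenin, stood at 122 and 105 TPM and BIRC5, or survivin, at 56.1 and 46.8 TPM. CCND3 and CCND1 stood at 48.9 and 38.0 and at 45.8 and 25.8 TPM, overlapping, while CCND2 and MYCN were at 0 and TERT had 0.054 and 0.114 TPM. In the cell death list BCL2L1, which blocks apoptosis, stood at 187 and 181 TPM and BAX, which drives it, at 162 and 163 TPM. BCL2 itself had 0.105 and 0.084 TPM.

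Glycolysis genes were detected in 21 of 32 cases (65.6%), and the split ran between isozymes. GAPDH stood at 2999 and 3298 TPM, ENO1 at 1318 and 1388 TPM and PKM, the pyruvate kinase of tumours and most tissues, at 1529 and 1534 TPM. PKLR, the liver and red cell pyruvate kinase, had 0.013 and 0.047 TPM. PKM transcripts that hold the exon of the M2 form (GRCh38 chr15:72202454-72202620) stood at 693 and 772 TPM. Those that hold the exon of the M1 form (chr15:72203022-72203188) stood at 19.1 and 21.7 TPM. Of the reads on either kind, the M2 form took 97.8% in each library. The rest of PKM's TPM lay in transcripts of neither kind. Of the aldolases ALDOA stood at 865 and 1007 TPM, above ALDOC at 35.7 and 50.6 TPM. HK1 stood above HK2, at 45.5 and 51.5 against 11.5 and 8.27 TPM, while HK3 had 0.0098 and 0 TPM. LDHB and LDHA, the heart and muscle type subunits of lactate dehydrogenase, stood at 1388 and 1309 and at 1109 and 1037 TPM, and LDHC was at 0. The glucose carrier SLC2A1 stood at 131 and 138 TPM, whereas the authors' FPKM, not rescaled, gave 1233 and 1073, and SLC2A3 was at 0. SLC2A1's TPM here may omit transcripts that had no match in the annotation, which was not tested.

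The pentose phosphate and gluconeogenesis list had 11 of 15 genes (73.3%) detected. TKT and TALDO1, which interconvert sugar phosphates, led at 606 and 595 and at 568 and 538 TPM, followed by PGD at 308 and 293 TPM. FBP1, a gluconeogenic phosphatase, stood at 77.4 and 90.9 TPM, named after its value was seen, but G6PC1 was at 0 and PCK1 had 0.161 and 0.204 TPM.

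Mitochondrial genes were detected almost throughout, with 26 of 27 of the tricarboxylic acid cycle and 35 of 38 of nuclear oxidative phosphorylation. MDH2, the mitochondrial malate dehydrogenase, led the cycle at 320.0 and 301 TPM, then SDHA at 237 and 282 TPM and PDHA1 at 244 and 237 TPM. The median level of the 26 detected members was 76.7 TPM. Subunits of cytochrome c oxidase led the respiratory list, COX6B1 at 769.8 and 894, COX6A1 at 734 and 757 and COX8A at 665 and 669.8 TPM. The 3 missing were COX4I2, COX6A2 and COX7A1, tissue-restricted forms whose common counterparts COX4I1 (535 and 569.8 TPM), COX6A1 and COX7A2 (496 and 607 TPM) were present. All 13 mRNAs of the mitochondrial genome were detected, but only 10 with short transcripts left out. MT-CO2 stood at 2413 and 3854 TPM and MT-CO3 at 2177 and 3327 TPM, both higher in replicate 2. MT-ND6, the only one on the light strand, had 4.18 and 4.19 TPM.

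Fatty acid genes were detected in 24 of 28 cases (85.7%). SCD, which adds the first double bond, led at 361 and 276 TPM, and the acyl-CoA dehydrogenase ACADVL and the ligase ACSL3 followed at 247 and 289 and at 178 and 112 TPM. FASN and ACACA, the enzymes of synthesis, stood at 129.7 and 155 and at 101 and 81.0 TPM, named after their values were seen. Of the desaturases of polyunsaturated chains FADS1 had 1.64 and 1.63 TPM and FADS2 0.453 and 0.508 TPM. ELOVL5, the elongase that works between them, had 0 reads in each. It also had 0 reads in 7 of the 8 libraries of the series and 1 read in the other. Its neighbours on chromosome 6 were mixed. FBXO9 stood at 61.4 and 41.3 TPM and GCLC at 45.4 and 33.4 TPM. GCM1, which lies between FBXO9 and ELOVL5, was at 0 in both libraries, and KLHL31 had 0.110 and 0.085 TPM. NR3C1, FGFR1 and AMOTL1 were likewise at 0 in 7 of 8 libraries, and SMO and ITGA5 in 4 of 8, with at most 2 reads in any library. Transcripts with no match in the annotation, which took 1.77% and 1.54% of reads, could belong to any of these genes.

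Cholesterol genes were detected in 19 of 22 cases (86.4%), with FDPS at 272 and 295 TPM and DHCR7, which makes the last step to cholesterol, at 168 and 142 TPM. ABCA1 and SOAT2 were under 1 TPM. The amino acid and one-carbon list had 28 of 31 genes (90.3%) detected, led by the glutamine carrier SLC1A5 at 304 and 311 TPM, the glutamine synthetase GLUL at 262 and 204 TPM and the carrier subunit SLC3A2 at 219 and 189.8 TPM. ARG1, a liver arginase, was at 0.

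Xenobiotic genes were detected in 14 of 27 cases (51.9%). GSTP1, a glutathione transferase, stood at 1779 and 1728 TPM and NQO1, a quinone reductase, at 585 and 591 TPM. The drug exporters ordered as ABCC3 (315 and 291 TPM), ABCG2 (22.0 and 15.9 TPM), ABCC1 (17.2 and 15.1 TPM), ABCC2 (0.213 and 0.376 TPM) and ABCB1 (0.046 and 0.050 TPM), and ABCG2 and ABCC1 overlapped. CYP3A5 stood at 83.3 and 68.8 TPM while CYP3A4 was at 0. Ion and water transport genes were detected in 17 of 24 cases (70.8%), led by ATP1B1, a beta subunit of the sodium pump, at 258 and 205 TPM, and with the carbonic anhydrase CA9 at 142 and 191 TPM. SCNN1A, the alpha subunit of the epithelial sodium channel, stood at 113 and 105 TPM, named after its value was seen, while its partners SCNN1B and SCNN1G were at 0.

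**Figure D4:**
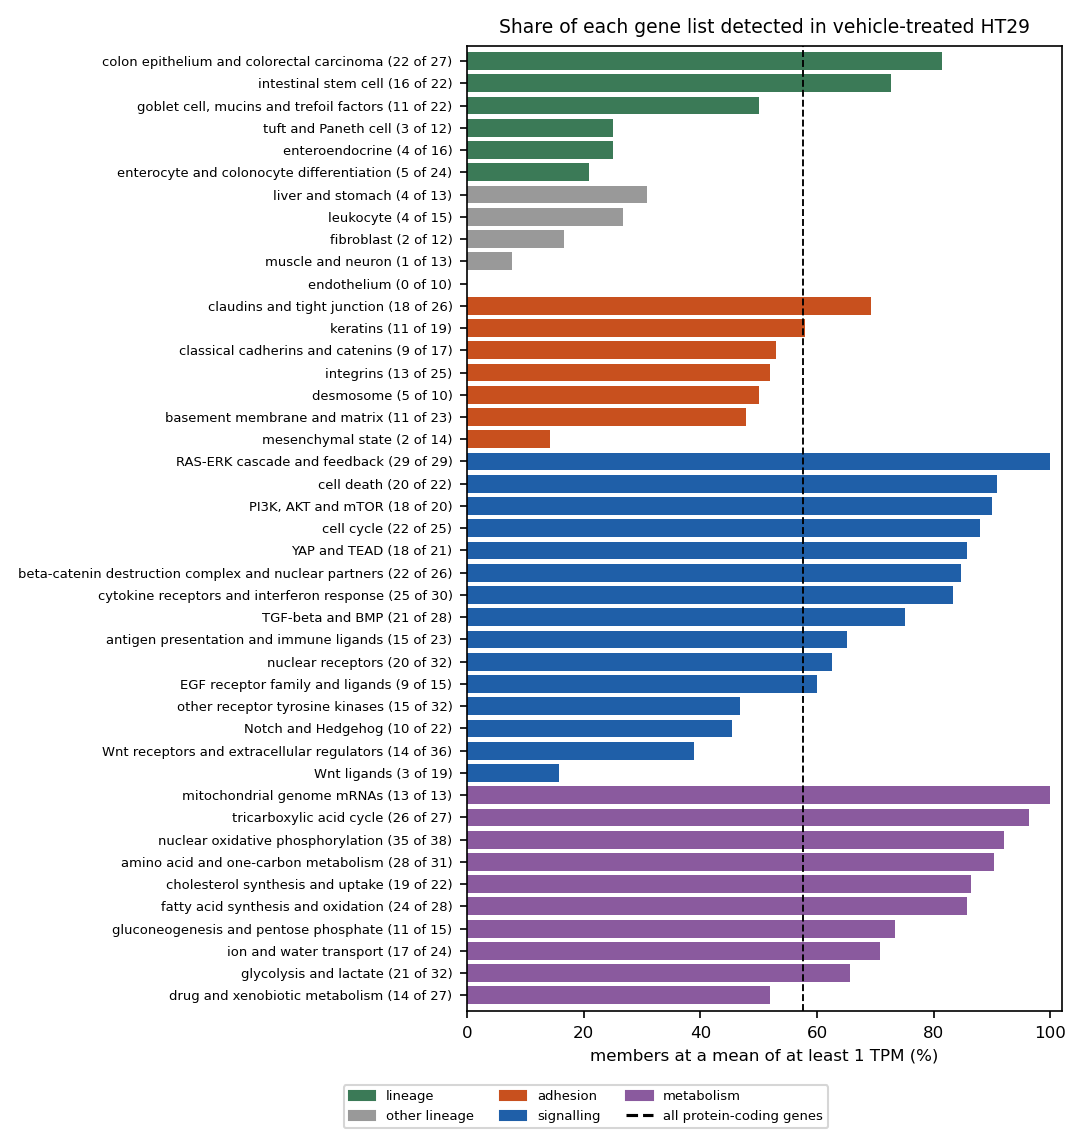
Share of the members of each of 43 gene lists at a mean of at least 1 TPM in the 2 DMSO libraries, as bars from 0 coloured by theme, with the members counted in brackets and a dashed line at the share of all protein-coding genes (57.6%). The RAS-ERK and mitochondrial mRNA bars reach 100%, with short transcripts counted, and the endothelium bar is at 0.

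How far the libraries of the pair differed depended on the scale. Over 7719 genes with a mean of at least 10 TPM, the SD of the log2 difference, replicate 2 over replicate 1 with 1 TPM added, was 0.52. The counting SD that follows from the reads of whole genes had a median of 0.050. It leaves out the split of reads among transcripts, on which TPM depends. A median over genes is also not a like measure to an SD over genes. At least 2-fold apart were 305 genes (3.95%), with 46 (0.596%) higher in replicate 2 and 259 (3.36%) higher in replicate 1. Counts scaled to library size by TMM (CPM), which take no account of length and so pass over the short transcripts, gave a smaller SD of 0.30 and 71 genes (0.92%), with 21 (0.272%) higher in replicate 2 and 50 (0.648%) higher in replicate 1. In common were 63 genes, 20.7% of those apart in TPM and 88.7% of those apart in CPM.

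The treated pairs gave an SD in TPM of 0.53 with ICG-001, 0.47 with CWP232228 and 0.50 with YB-0158, and in CPM of 0.26, 0.22 and 0.23. In CPM the DMSO pair thus had the widest spread of the 4. edgeR's common coefficient of biological variation was 15.6% for DMSO and between 5.80% and 6.31% for the others. No test of this difference was run.

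The difference within the DMSO pair followed sequence composition and length. Its rank correlation across genes with the GC content of the transcripts was 0.43 in TPM and 0.51 in CPM, and with their length -0.43 and -0.50. The treated pairs also followed GC content, with correlations in CPM of -0.76 with ICG-001, -0.55 with CWP232228 and -0.53 with YB-0158. In TPM these were -0.45, -0.17 and -0.17. With length, the treated pairs had correlations in CPM of 0.07, 0.03 and 0.05. In CPM the median log2 difference of the DMSO pair rose with GC content over 5 equal sets of genes. It ran from -0.21 through -0.06, 0.05 and 0.13 to 0.16. Genes rich in GC were thus higher in replicate 2 and genes poor in GC higher in replicate 1. The part of GC content in the levels of single genes was not tested.

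Of the 20 genes furthest apart in TPM, 15 held over 50% of their TPM in transcripts with an effective length under 100 bases. The 10 furthest toward replicate 2 were SMN2, CC2D1B, FGD3, FAM219B, RINL, ZNF395, COL16A1, CRTC2, FLVCR2 and RARRES1. CC2D1B, for example, stood at 17.4 and 96.4 TPM but at 53.1 and 52.5 CPM. Of the 10, 0 were 2-fold apart in CPM. SMN2 shares nearly all of its sequence with SMN1, so its level is uncertain. The 10 furthest toward replicate 1 were PIGY, IL6ST, ARPP19, DLG1, GPR107, FOXO1, SYTL4, PIK3C2A, GATAD2B and ACSL4, of which 3 were 2-fold apart in CPM. DLG1, a scaffold of cell polarity, stood at 35.4 and 10.2 CPM and ACSL4, a ligase for arachidonic acid, at 26.3 and 8.23 CPM. The authors' FPKM, not rescaled, gave 40.1 and 18.6 for DLG1 and 43.9 and 22.0 for ACSL4. Of 11427 protein-coding genes detected and given an FPKM, 87 had a TPM under 50% of the FPKM rescaled to the same total. PIGY rested on 21.5 reads in replicate 1 and 0 in replicate 2.

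**Figure D5:**
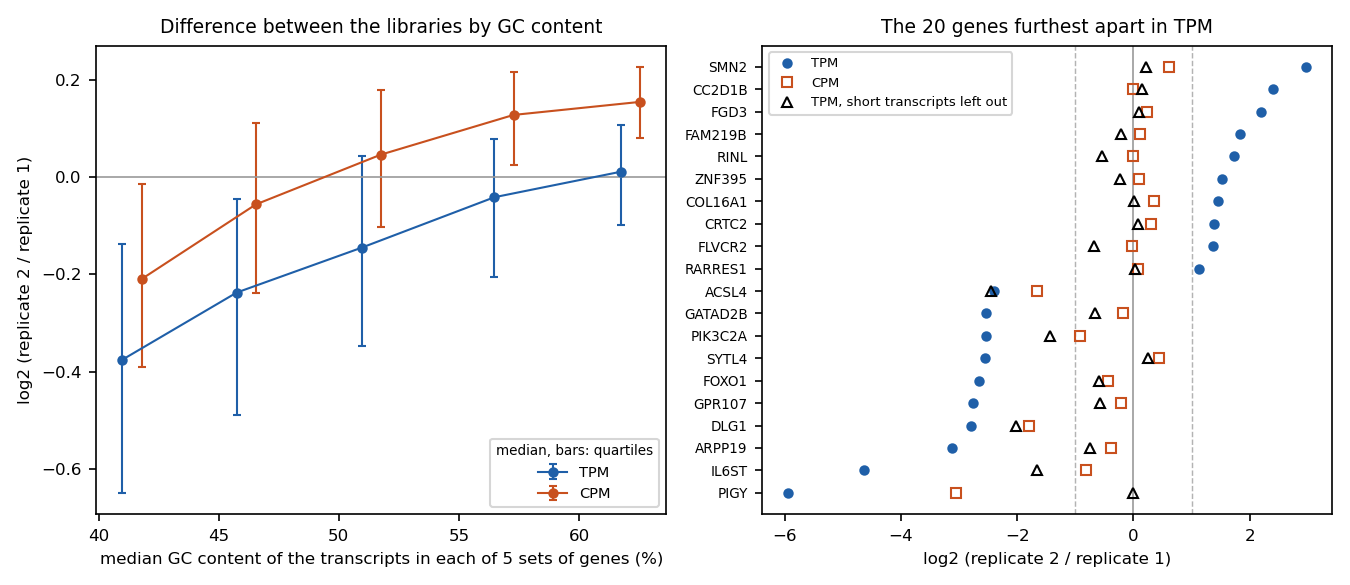
Left, median log2 difference (replicate 2 over replicate 1) with quartiles in 5 equal sets of 7719 genes by GC content, in TPM and CPM, with the 2 series shifted apart by a little along the horizontal axis. Right, the 20 genes furthest apart in TPM with their difference in TPM, in CPM and in TPM without short transcripts, dashed lines marking 2-fold, where most CPM points lie between the lines and PIGY without short transcripts is 0 in both.

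Among list genes, 6 were 2-fold apart in CPM, 2 of them toward replicate 2. FABP1 stood at 11.8 and 28.1 CPM, a log2 difference of 1.24, and NDUFA4L2, a respiratory subunit induced by low oxygen, stood at 27.0 and 61.1 CPM, a difference of 1.18. Toward replicate 1 were HNF4G, an intestinal nuclear receptor (33.3 and 11.4 CPM), and the integrin chain ITGAV (80.0 and 37.7 CPM), next to ACSL4. These were named after their values were seen. By list, the mitochondrial mRNAs had a median log2 CPM difference of 0.66 over 12 genes, and S100A4, the 1 mesenchymal gene at 10 TPM or more, a difference of 0.83. Other lists gave medians of 0.10 for colon epithelium, -0.22 for stem cell, 0.25 for keratins, 0.23 for glycolysis and -0.26 for YAP and TEAD genes. KRT8, KRT18, EPCAM and CDX2 were each within 2-fold between the libraries in TPM, as was CEACAM5.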

How the data were processed

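Libraries were made with the TruSeq RNA v2 kit, which does not mark strand, from RNA whose quality number was 8 or higher, per the labels' protocols. Reads from a gene and an antisense partner therefore cannot be told apart. Tools listed in the submitters' processing notes, without their roles, are DESeq2, fastp and Salmon 1.3.0, and the build listed there is GRCh38. The deposited files give, per the file headers, Salmon's TPM, its estimated counts and an effective length for each transcript, and the authors' deposited tables give FPKM per gene. The transcriptome release is not given in the sources used here.

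Of 228754 transcripts, 204677 (89.5%) matched GENCODE release 29, and their values were summed over 58193 genes. Transcripts with no match took 1.77% and 1.54% of estimated reads and entered no gene. Groups came from the sample titles. TPM was compared between genes, and the libraries were compared as log2((TPM + 1) ratio) and as CPM with TMM scaling from edgeR 4.0.16 under R 4.3.3, with a prior of 0.1 CPM. At this depth 3 counts, the most that a count of 0 allows, come to 0.103 and 0.101 CPM. The script that compares the pair was tested on simulated data.

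The line's markers, 43 gene lists and the naming rule were chosen with earlier results of these data known. The rule takes 5 markers, 9 genes tied to the compounds (KHDRBS1, CREBBP, EP300, CTNNB1, MYC, BIRC5, CD44, LGR5 and PROM1), the 20 nuclear protein-coding genes with the highest mean TPM, of each list the 3 highest members and up to 5 under 1 TPM, all members of lists of 12 or fewer and of families ordered by level, and the 10 genes furthest apart each way at a mean of at least 10 TPM. Alternatives were other thresholds, pseudocounts, units, scaling, a GC correction, each library alone and, added after seeing the data, leaving out transcripts with an effective length under 100 bases. Some members of the lists are not reported here.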

Additional observations from a re-analysis of the deposited data

Results flagged for a closer look

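A share of each library lay outside the genes described. Transcripts with no match in GENCODE 29 took 1.77% of the estimated reads of DMSO replicate 1 and 1.54% of those of replicate 2. They were given no gene.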

How the results depend on the processing

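The number of genes detected stayed within 1.5 times of 13463 under every alternative run. It was 14944 at a threshold of 0.5 TPM, 9802 at 5 TPM, 12718 with 1 TPM required in both libraries, 13580 with the authors' FPKM, 13201 without short transcripts, and between 13211 and 13477 with each library alone. The list genes detected likewise ran from 503 at 5 TPM to 625 at 0.5 TPM around 592, and from 587 to 595 with each library alone. Small counts moved by over 1.5 times in 4 lists at 0.5 TPM, where endothelium had 1, muscle and neuron 2, mesenchymal 4 and tuft and Paneth cell 5, and in 5 lists at 5 TPM, where enteroendocrine and fibroblast had 0, mesenchymal 1, and leukocyte and liver with stomach 2 each. Muscle and neuron also had 2 in replicate 2 alone. The spread between the libraries depended on the scale. Its SD of 0.52 became 0.62 with the filter at 1 TPM, 0.33 with no filter, 0.70 with a pseudocount of 0.1 TPM, 0.30 in CPM, 0.45 in FPKM and 0.33 without short transcripts, and 0.50 once its trend with GC content was removed. The 305 genes at least 2-fold apart became 844 with the filter at 1 TPM, 990 with no filter and 334 with a pseudocount of 0.1 TPM. They became 71 in CPM, 170 in FPKM, 168 without short transcripts and 206 once the trend with GC content was removed. The cause of these changes was not tested, beyond the set of genes that each filter admits. Of 53 named genes tried, 19 moved by more than 1.5-fold without short transcripts, 2 in rescaled FPKM (DLG1 and ACSL4) and 0 without mitochondrial genes. In replicate 2 alone 18 moved, and in replicate 1 alone 20. These 53 include the 20 genes picked as furthest apart in TPM between the 2 libraries, whose moves partly follow from that choice. All 20 that moved in replicate 1 alone were of that set. Outside it only EP300 and PROM1 moved in replicate 2 alone, and only RPL41 and RPL38 without short transcripts. Neither the SD nor the count of genes apart can be had from 1 library. No paired analysis was possible because no contrast between groups was made and no result comes from a test. Genes near 1 TPM rest on few reads, 132 and 118 for CEACAM5, and may fall on either side of the threshold in another library.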
